A study of Mus musculus with 21 samples.

Results

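C/EBPα, a transcription factor of differentiated hepatocytes, was mapped by chromatin immunoprecipitation and sequencing in hepatocytes perfused from mouse liver. The regions described here are those where both wild-type C/EBPα libraries had a peak. Peaks of the 2 lists were merged wherever they shared at least 1 bp, which gave 24668 regions, and 16590 of these held a peak of each list. The remaining 8078 regions came from 1 list only, 1070 from the first and 7008 from the second. Each of the 16590 regions was then placed in a class from 0 to 3, the number of wild-type H3K4me2 lists (of 3) with a peak on it. Dimethylation of lysine 4 of histone H3 (H3K4me2) is a chromatin mark of promoters and enhancers.

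Animals were of a mixed C57/B6 and 129 strain, aged postnatal day 90. The mice called wild type carried the floxed genotype Arid1a Fl/Fl without a Cre recombinase, so both the C/EBPα and the H3K4me2 libraries come from animals with floxed alleles and not from unmodified mice. A single further library came from mice of the genotype V5-Arid1a and was precipitated through the V5 tag. ARID1A is a DNA-binding component of a SWI/SNF remodelling complex, which moves nucleosomes. Knockout lists were not used, and input samples were not analysed here. The labels do not say that replicates came from separate animals, so spreads and p-values measure differences between these libraries, which may be technical.

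The 2 C/EBPα lists held 17733 and 23646 peaks with median widths of 391 and 381 bp. The 3 H3K4me2 lists held 34849, 61246 and 49802 peaks, and the ARID1A list held 5726. The kit and the sequencing instrument differed between C/EBPα and H3K4me2. The C/EBPα and ARID1A lists give positions only, so the width of a peak, as its percentile within its own list, is the sole measure of its size. Widths of the 2 peaks in a region ranked alike in the lists (Spearman rho 0.71 over 16590 regions, given as a description). The number of reads is unknown, and a missing peak means that none was called or kept.

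C/EBPα belongs to the basic leucine zipper proteins, which bind DNA as dimers through adjacent basic segments, and its dimers recognise short palindromic sites built around TTGC and its mirror image. In liver it is known for activating genes of plasma proteins, gluconeogenesis, the urea cycle and lipid metabolism, and for restraining proliferation. H3K4me2 is laid down by histone methyltransferases at active and poised promoters and at enhancers.

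The promoters below carried a C/EBPα region and are shown as examples from the plasma protein and acute-phase groups, which were most often bound at their ends, and from the metabolic and clock groups. Sequences are RefSeq promoter windows of GRCm38.p6 (mm10), written 5′ to 3′ on the strand of the gene. Capitals mark a match to TTGCNNAA, the C/EBP motif searched, on either strand. Alb encodes albumin, and its window is chr5:90460620-90460919 (plus strand, 250 bases before to 50 after the start). Its C/EBPα peaks were 608 and 792 bp wide in lists 1 and 2, and all 3 H3K4me2 lists had a peak on the region.
Alb: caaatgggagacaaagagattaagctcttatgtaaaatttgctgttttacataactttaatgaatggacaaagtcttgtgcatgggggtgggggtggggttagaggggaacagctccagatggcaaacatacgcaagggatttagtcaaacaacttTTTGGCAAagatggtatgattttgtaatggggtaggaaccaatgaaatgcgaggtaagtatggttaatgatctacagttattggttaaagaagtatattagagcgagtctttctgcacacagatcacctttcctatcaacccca
C3 encodes the central complement component, and its window is chr17:57228087-57228386 (minus strand). Its peaks were 634 and 717 bp wide, again in class 3.
C3: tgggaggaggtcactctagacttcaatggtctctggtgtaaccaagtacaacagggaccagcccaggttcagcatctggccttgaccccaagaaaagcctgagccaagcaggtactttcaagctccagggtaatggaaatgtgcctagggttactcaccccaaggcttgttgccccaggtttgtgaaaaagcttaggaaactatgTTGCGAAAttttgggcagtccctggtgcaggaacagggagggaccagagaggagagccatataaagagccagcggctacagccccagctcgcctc
Pck1, which encodes the cytosolic enzyme that commits oxaloacetate to gluconeogenesis, had no match in its window at chr2:173152823-173153122 (plus strand), although its peaks were among the widest, 1021 and 1176 bp. This window therefore has no capitals.
Pck1: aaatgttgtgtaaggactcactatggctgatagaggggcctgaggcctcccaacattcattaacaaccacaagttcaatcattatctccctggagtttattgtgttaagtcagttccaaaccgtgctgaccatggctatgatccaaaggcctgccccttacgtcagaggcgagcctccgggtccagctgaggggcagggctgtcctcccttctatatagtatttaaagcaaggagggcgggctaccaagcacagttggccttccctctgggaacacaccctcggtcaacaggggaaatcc

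Of the genes in the metabolic, plasma protein and other groups described further below, 58 had a region on a promoter window, and 29 of these had at least 1 match. Over all 1320 bound promoter windows 25.9% had a match, and over all 21238 windows 10.2%. Those shares count windows, while the group count is of genes, some with more than 1 window. All 33 matches in the group genes, some counted in overlapping windows of 1 gene, lay inside the C/EBPα region. The windows were chosen for overlapping a region and many lie wholly or largely inside it, so this outcome was nearly fixed. In 16 genes a match lay within 100 bp upstream of the start. The following stretches of 40 bases show matches with 16 bases on each side, in genes of clotting (Fga and Fgb for fibrinogen chains, Serpinc1 for antithrombin, F9 for factor IX), complement (C9), heme transport (Hpx), the acute phase (Saa1, Saa2, Orm2, Lcn2, Steap4), histidine breakdown (Hal) and the clock (Per1). Saa1 and Saa2 are near-identical copies whose reads can be confused in mapping.
Fga (chr3:83026002-83026041, plus strand): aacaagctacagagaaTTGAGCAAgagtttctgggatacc
Fgb (chr3:83049920-83049959, minus strand): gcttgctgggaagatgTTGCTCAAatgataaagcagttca
Serpinc1 (chr1:160978571-160978610, plus strand): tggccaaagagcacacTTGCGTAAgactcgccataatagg
F9 (chrX:59999424-59999463, plus strand): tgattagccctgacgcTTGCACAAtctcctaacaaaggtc
C9 (chr15:6445198-6445237, plus strand): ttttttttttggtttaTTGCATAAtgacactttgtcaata
Hpx (chr7:105600293-105600332, minus strand): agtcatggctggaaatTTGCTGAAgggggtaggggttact
Saa1 (chr7:46743139-46743178, minus strand): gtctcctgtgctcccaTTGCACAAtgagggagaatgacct
Saa2 (chr7:46751634-46751673, plus strand): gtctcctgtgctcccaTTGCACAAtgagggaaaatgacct
Orm2 (chr4:63362313-63362352, plus strand): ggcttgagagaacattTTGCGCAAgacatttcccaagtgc
Lcn2 (chr2:32387932-32387971, minus strand): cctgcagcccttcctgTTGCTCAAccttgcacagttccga
Steap4 (chr5:7960369-7960408, plus strand): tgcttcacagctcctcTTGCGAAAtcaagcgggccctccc
Hal (chr10:93488602-93488641, plus strand): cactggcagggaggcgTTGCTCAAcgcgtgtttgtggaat
Per1 (chr11:69098909-69098948, plus strand): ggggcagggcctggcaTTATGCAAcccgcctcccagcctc
Orm2 carried the full palindrome TTGCGCAA. The matches of Saa1 and Saa2 were the same 8 bases at almost the same distance from the start, at -182 and -183 bp.

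Most C/EBPα regions lay on H3K4me2. All 3 H3K4me2 lists had a peak on 8162 of the 16590 regions (49.2%), 2 lists on 3162 (19.1%), 1 list on 2650 (15.97%) and no list on 2616 (15.8%). Seen list by list, 63.1%, 79.8% and 58.8% of the regions were marked, a mean of 67.2% ± 11.1 (SD, n = 3 lists). The second H3K4me2 list, which has the most peaks, was the only one on 2076 of the 2650 regions of class 1. Without it, the share with no H3K4me2 was 28.3%. Of the regions with a C/EBPα peak in 1 list only, 35.0% had no H3K4me2 and 33.6% had all 3 lists. Exact binomial intervals of these shares, which cover counting of regions only, run from 15.2% to 16.3% for class 0 and from 48.4% to 50.0% for class 3. The classes also depend on how overlap is scored. With only the centre base of each region counted, 22.3% had no list and 35.8% had all 3, and with H3K4me2 peaks at or above the pooled median −log10 q, 34.0% had none and 22.0% had all.

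Regions without H3K4me2 were mostly near, but not next to, a mark. The median distance from a class 0 region to the closest H3K4me2 peak of any list was 5.94 kb. Only 387 (14.8%) had a peak within 500 bp, and 976 (37.3%) had none within 10 kb. In the other direction, 26.9%, 18.9% and 18.0% of the H3K4me2 peaks of lists 1 to 3 held a C/EBPα region. Among the widest 5% of H3K4me2 peaks these shares were 65.7%, 58.8% and 51.0%, and single peaks held up to 5, 8 and 5 regions. These widest peaks measured at least 4137, 4823 and 3313 bp in lists 1 to 3. A wide peak can hold a region, or several, by its size alone, and the part of size was not tested. Within the lists, H3K4me2 peaks with a region had a −log10 q percentile 10.5 higher (SD 10.6, n = 3 lists) than those without, in 2 of 3 lists (exact paired permutation test, two-sided, p = 0.5). That difference was 15.8 without list 1 and 5.12 without list 2, and it was -2.59 among H3K4me2 peaks at or above the pooled median −log10 q.

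The more H3K4me2 lists a region had, the closer it lay to genes. A gene end here means within 1 kb of either annotated end of a protein-coding gene. At gene ends lay 3.71% of class 0 regions, 5.02% of class 1, 7.84% of class 2 and 22.8% of class 3. Regions outside genes ran the other way, with 51.8%, 44.9%, 41.7% and 30.2%. The share inside a gene body but away from its ends differed little between classes, from 44.5% to 50.5%. Of class 0, 14.6% lay over 100 kb from any gene, and of class 3, 4.94%. Over the 3 H3K4me2 lists taken singly, 18.8% ± 1.86 (SD) of marked regions and 4.78% ± 0.804 of unmarked regions were at a gene end. Marked regions were higher in 3 of 3 lists, by 14.0 points on average (exact paired permutation test, two-sided, p = 0.25, the smallest value that 3 lists allow). No list's marked share overlapped the unmarked shares. With the stricter H3K4me2 peaks the difference was 22.1 points.

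**Figure D1:**
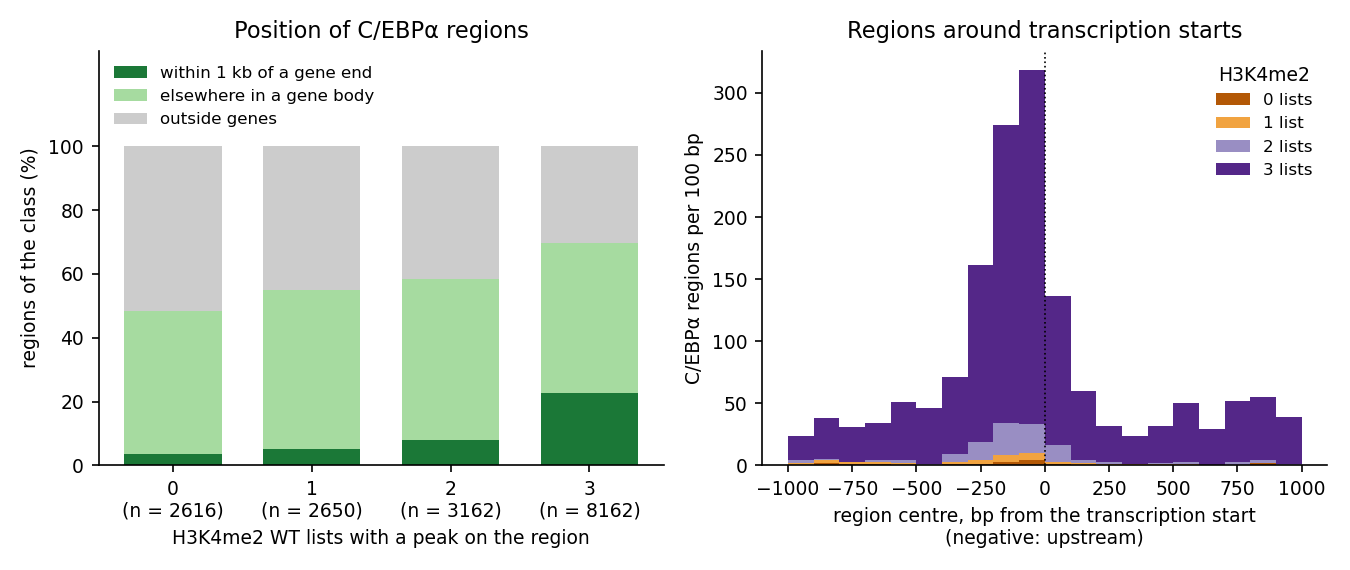
Left, the share of C/EBPα regions (%) at gene ends, elsewhere in gene bodies and outside genes, for regions with 0 to 3 H3K4me2 lists. Right, the number of regions per 100 bp by the distance of their centre from the nearest transcription start, coloured by H3K4me2 lists. Gene-end shares go from 3.71% to 22.8%, and the right panel is highest just upstream of the start.

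Strand was known for 17492 genes, and in these the starts, not the other ends, held most of the regions. A region lay within 1 kb of the start in 1621 genes (9.27%) and of the other end in 429 (2.45%). By the highest class present, the starts split into 1457 genes with class 3 and 12 with class 0, and the other ends into 203 with class 3 and 74 with class 0. Region centres within 1 kb of a start numbered 1557, of which 67.3% were upstream, with a median of -87 bp and quartiles of -235 and 72 bp. The bin from 100 bp upstream to the start held 318 centres and the 100 bp after it held 136. C/EBPα also followed the mark gene by gene. Of the 12033 genes with H3K4me2 at an end in all 3 lists, 18.99% had a C/EBPα region at an end, against 0.326% of the 7372 genes with no H3K4me2 there.

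Marked regions were also wider and stood closer together. The mean width percentile was 38.8 in class 0, 47.2 in class 1, 54.8 in class 2 and 61.6 in class 3. Median widths went from 348 and 353 bp (lists 1 and 2) in class 0 to 424 and 450 bp in class 3. Among the narrowest regions, with a percentile up to 20, 33.9% were class 0 and 28.2% class 3, and among those over 95, 2.17% and 83.8%. Width did not go with gene ends in the same way: regions at gene ends had a mean percentile of 55.8, those in gene bodies 53.5 and those outside genes 55.1. Width enters an overlap of 1 bp by construction. With the centre base alone, marked regions were still higher in width percentile by 12.7, against 15.3 by 1 bp overlap (both higher in 3 of 3 lists, exact paired permutation test p = 0.25, the smallest possible). Once C/EBPα peaks narrower than the pooled median were left out, the difference was 5.77.

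Spacing followed the same order. Another C/EBPα region lay within 10 kb of 24.7% of class 0 regions, 37.3% of class 1, 46.8% of class 2 and 52.5% of class 3. The median distance to the nearest neighbour was 31.4 kb in class 0 and 17.8, 12.1 and 8.98 kb in classes 1 to 3. Over the H3K4me2 lists, 50.3% ± 1.39 (SD) of marked and 32.2% ± 3.74 of unmarked regions had such a neighbour. The difference of 18.1 points was positive in 3 of 3 lists (exact paired permutation test, two-sided, p = 0.25, the smallest possible). Away from gene ends the shares by class kept this order, with 24.5%, 37.3%, 46.5% and 54.7%. At gene ends they were 30.9%, 36.8%, 50.4% and 44.8%, with class 3 below class 2. Of the 4480 pairs of adjacent regions within 10 kb of each other, 48.6% were of the same class. Pairs both of class 3, the most common class, made up 39.6% of all pairs, and 67 pairs were both of class 0. Whether neighbours shared a class more often than the make-up of the classes gives was not tested.

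**Figure D2:**
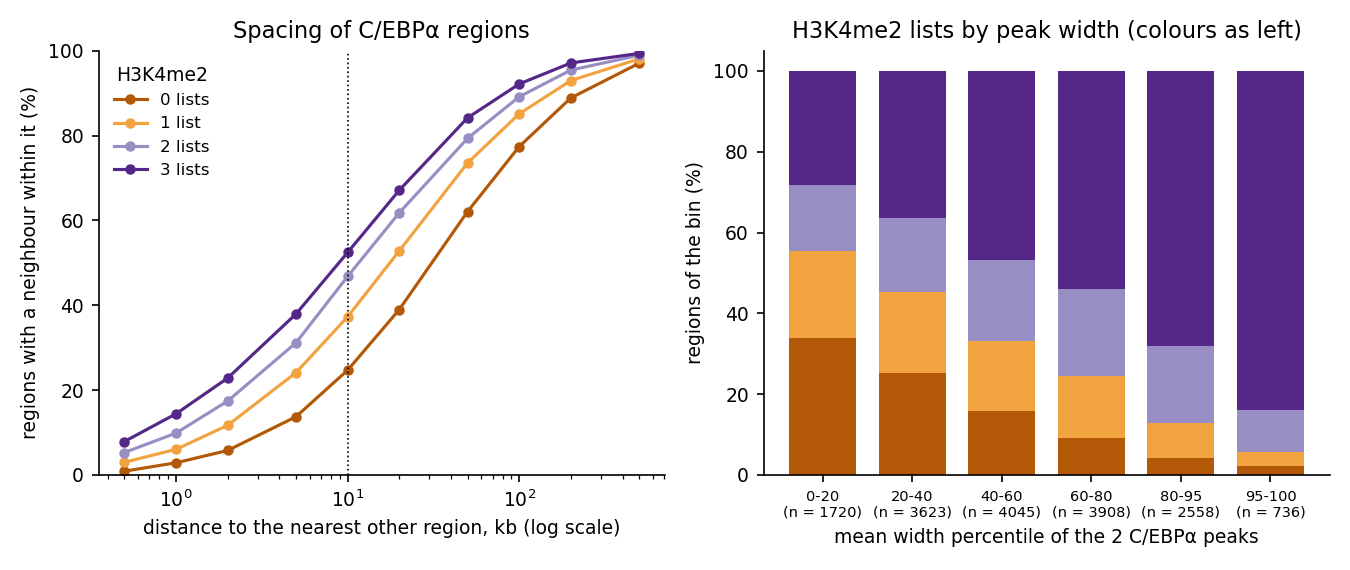
Left, the share of regions (%) with another C/EBPα region within a given distance (kb, log scale), by number of H3K4me2 lists. Right, the make-up of bins of C/EBPα width percentile by number of H3K4me2 lists; the lines keep the order 0 to 3 at every distance, and at 10 kb (dotted) they run from 24.7% to 52.5%.

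**Figure D3:**
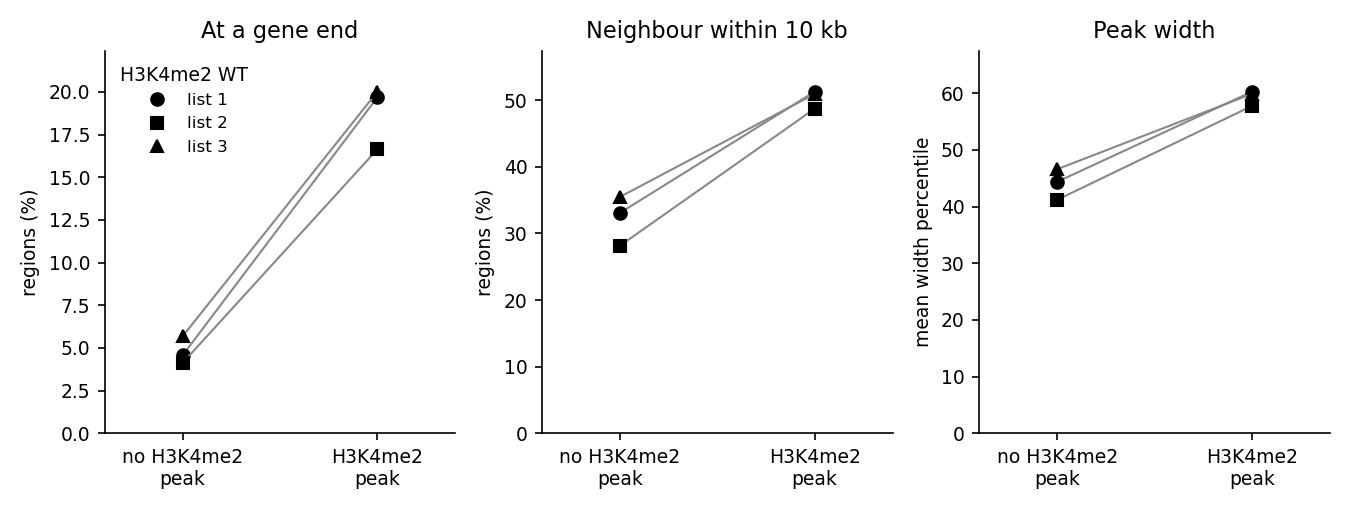
Gene-end share (%), share with a neighbour within 10 kb (%) and mean width percentile of C/EBPα regions without and with a peak of each H3K4me2 list, 1 symbol per list. In all 3 panels every list is higher in marked regions, with gene-end means of 4.78% and 18.8%.

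Some of the widest C/EBPα regions nevertheless had no H3K4me2 peak. The 3 widest of class 0 were closest to Dapk1 (a death-associated kinase), Ahsg (the plasma protein fetuin-A) and G6pc (glucose-6-phosphatase, the last enzyme of glucose release). The region near G6pc, chr11:101378375-101379679, began 472 bp from the gene's annotated end, overlapped an ARID1A peak, and had its nearest H3K4me2 peaks 4867, 5759 and 6592 bp away in lists 1 to 3. A separate class 3 region lay on the G6pc promoter window. The Dapk1 and Ahsg regions were less isolated, with an H3K4me2 peak of the second list 281 and 743 bp away. In class 3 the widest were closest to Map3k7cl, Usp40 and Sdc4 (a cell-surface proteoglycan), all outside genes and all with an ARID1A peak. In class 1 they were closest to Lmo4, Rprd1b and Atp1b1, all with an ARID1A peak, and in class 2 to Fbln1, Cisd1 and Sash1, none with it. At these 3 regions per class ARID1A did not follow the class. The shares over all wide regions are given further below. The 3 regions farthest from any gene lay on chromosome 1 between Cntnap5b and Cdh20, from 2027 to 2071 kb away, and 2 of them had no H3K4me2.

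Regions were spread over many genes, and a few long genes held most of the high counts. A region lay in the body or within 10 kb of 7683 of 21887 protein-coding genes (35.1%), and at a gene end of 2423 (11.1%). At least 5 regions were found at 528 genes (2.41%). Gene length went with the count, from a median of 12.3 kb in genes without a region to 329 kb in those with 10 or more. Rora, a nuclear receptor of the clock and lipid metabolism, had the most, with 24 regions over 735 kb. Next came Arhgap26 with 22, Rad51b with 21, Nfia with 20, Pard3 with 19, Nfib, Prkce and Zbtb20 with 17 each, Itpr1 with 16, and Foxn3 and Vps13d with 15 each. Nfia and Nfib encode transcription factors of the nuclear factor I family, and Zbtb20 encodes a zinc-finger repressor known for silencing Afp in adult liver.

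The classes were mixed within these genes. Nfia had the most class 3 regions, 15 of its 20, and none of class 0. Arhgap26 had 14 of class 3, and Nfib, Rad51b and Rora 12 each. Rora also had the most class 0 regions, 5 of 24. A count of 4 class 0 regions was shared by 11 genes, among them Rad51b and Scp2, a sterol carrier whose 13 regions included 8 of class 3. Pard3b, another of them, had no class 3 region among 7. In genes with a body of at most 50 kb, a limit chosen after the values were seen, Mat1a (9 regions) led, followed by Per2 and Rnf125 (8 each).

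Clusters, in which neighbouring regions lie within 10 kb, were common. Of the 16590 regions 9195 stood alone, 3912 were in 1956 pairs, 2646 in clusters of 3 to 4, and 837 (5.05%) in 147 clusters of at least 5. The largest held 10 regions over 42.8 kb at chr3:138221112-138263875, closest to Adh7 and Adh1, which encode alcohol dehydrogenases. It had 2 regions of class 0, 1 of class 1, 2 of class 2 and 5 of class 3, and 5 of the 10 overlapped an ARID1A peak. A group of 4 clusters held 9 regions each. That at Mat1a, the hepatocyte enzyme making S-adenosylmethionine, spanned 20.5 kb and had 7 regions of class 3. That at Abcc2, a canalicular export pump for conjugated bilirubin, had 5 of class 3 and 1 of class 0. The cluster over Orm1, Orm2 and Orm3, near-identical genes for the acute-phase plasma protein orosomucoid, had 4 of class 1 and 4 of class 3. The fourth lay inside Rora, with 6 of class 3.

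Gene groups chosen for liver functions and for other cell types were then counted against the backgrounds of 35.1% (region in the body or within 10 kb) and 11.1% (region at a gene end). These are counts without a test, and the groups were drawn up with earlier results of these data known. In each of the 11 groups of liver function, clock, acute phase and iron genes, at least 15 in 18 members had a region. Most members of these groups had H3K4me2 at an end in all 3 lists. Of the 12033 genes so marked, 50.6% had a region and 18.99% had one at an end. Gene-end counts separated these groups from each other.

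Genes of secreted proteins were bound at their ends most often. Of the 14 carrier protein genes all had a region and 10 had one at an end. Alb had 6 regions (1 of class 0, 3 of class 2, 2 of class 3), Ttr, the thyroxine carrier, 4, and Gc, the vitamin D carrier, 5 of class 3 with none at an end. Of 22 coagulation and complement genes 20 had a region and 19 had one at an end. The fibrinogen genes Fga, Fgb and Fgg had 5, 5 and 6 regions, shared in part because the genes are neighbours, with 4, 4 and 6 of class 3. F11, for coagulation factor XI, had 7 regions, 4 of them with ARID1A. Proc and Mbl2 had none. All 14 acute-phase genes had a region and 13 had one at an end. Itih4 was the exception. None of the 37 region counts in this group was of class 0, against 11.8% over all genes; neighbouring Saa genes share some of these regions. Socs3, the feedback inhibitor of cytokine signalling, had 4 regions, and Stat3, its upstream transcription factor, had 3.

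Metabolic groups had regions nearly as often but mostly away from gene ends. In the lipid group 20 of 22 genes had a region and 8 had one at an end. Acaca, the first enzyme of fatty acid synthesis, had 10 regions over a body of 272 kb, 6 of them of class 3. Fasn, fatty acid synthase, was the only gene of all groups whose gene-end regions were of no class above 0, and its 3 class 3 regions lay away from its ends. Lcat was among those with none. All 14 bile acid genes had a region and 5 had one at an end. Cyp7a1, the rate-limiting enzyme of bile acid synthesis, had 3 (2 of class 1, 1 of class 3), Cyp8b1, the hydroxylase of the cholic acid branch, had 6 around a body of 1.95 kb, and Nr1h4, the bile acid receptor, had 9. In the urea cycle and amino acid group 15 of 18 had a region and 6 had one at an end. Cps1, the entry enzyme of the urea cycle, had 6, and Tat, tyrosine aminotransferase, had 5, while Otc, Glul and Nags had none.

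Of 13 genes of gluconeogenesis and glycogen 12 had a region and 5 had one at an end. G6pc had 5 regions, 4 of them of class 3, and Pck1 had 1, of class 3. Ppargc1a, a transcriptional coactivator of gluconeogenesis, had 10 regions over 662 kb, of which 7 were of class 1 and 2 of class 3. Of 20 cytochrome P450 and conjugation genes 18 had a region and 8 had one at an end. Por, the reductase that supplies the P450 enzymes with electrons, had 6, and Cyp2e1 and Cyp4a14 had none. Of 14 iron and metal genes 13 had a region and 8 had one at an end. Scara5, a ferritin receptor, had 8 regions, 3 of class 0 and none of class 3.

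Regions lay at the genes of the regulators themselves. Of 19 hepatocyte transcription factor genes 17 had a region and 6 had one at an end. Cebpa itself had 5 regions, 2 of class 2 and 3 of class 3, and its promoter region was of class 2 with peaks of 423 and 313 bp. Cebpb and Cebpg each had a gene-end region of class 3, and Cebpd had no region. Hnf4a had 7 regions and Nr5a2 had 9, while Foxa1 had none. All 15 clock genes had a region and 8 had one at an end. Per2 had 8 regions, 5 of class 3. Nfil3 had 6 and Dbp 4, which encode an opposing repressor and activator of the same sites. Arntl, the core activator, had 1, of class 2.

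Genes of general cell functions were closer to the C/EBPα background of all genes than the liver groups were. For H3K4me2 at an end in all 3 lists, the background is 12033 of 21887 protein-coding genes. Of these 12033 genes 50.6% had a region and 18.99% had one at an end. The groups that follow, nearly all marked in this way, lay below both shares. Of 20 cell cycle genes 9 had a region and 2 (Cdk4 and Pcna) had one at an end, and all 20 had H3K4me2 at an end in all 3 lists. Of 20 ribosomal protein genes, also all marked in every list, 4 had a region and 2 had one at an end. Among 18 SWI/SNF subunit genes, 17 of them marked in every list, 6 had a region and 2 had one at an end. Arid1b had 12 regions and Smarca2 had 7, with none at Arid1a, Smarca4 or Smarcb1.

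Markers of the cell types were read in the same way to check the label of the tissue. All 10 hepatocyte markers had a C/EBPα region, 5 of them at an end, and all 10 had H3K4me2 at an end in all 3 lists, against the background of 12033 of 21887 genes marked in all lists and 7372 in none. Of 15 Kupffer cell and leukocyte markers 1 (Cd68) had a region, none had H3K4me2 at an end in all lists, and 12 had it in no list. Among 14 stellate cell and fibroblast markers 1 (Reln) had a region and 3 were marked in all lists, and among 10 cholangiocyte markers 4 were marked in all lists. Of 14 endothelial markers 7 had a region, 1 of them at an end (Flt1), and 5 (Fcgr2b, Flt1, Kdr, Lyve1 and Tie1) had H3K4me2 at an end in all lists. The part of such cells in the lists was not tested. Of 14 neuronal genes, a group for a tissue not sampled, 2 had a region, 4 were marked in all lists and 8 in none. The endothelial, stellate and cholangiocyte counts of genes marked in all lists lay near this 4. Marked in no list were 1 of 14 endothelial, 6 of 14 stellate and 3 of 10 cholangiocyte markers. By that count and by genes with a region, 7 against 2, the endothelial markers were unlike the neuronal group. The endothelial 7 of 14 lay between the shares over all genes (35.1%) and over genes marked in all lists (50.6%). The 1 of 14 with a region at an end lay below the 11.1% over all genes. Median gene length was 36.3 kb in the endothelial group, 65.9 kb in the neuronal group and 17.2 kb over all genes.

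**Figure D4:**
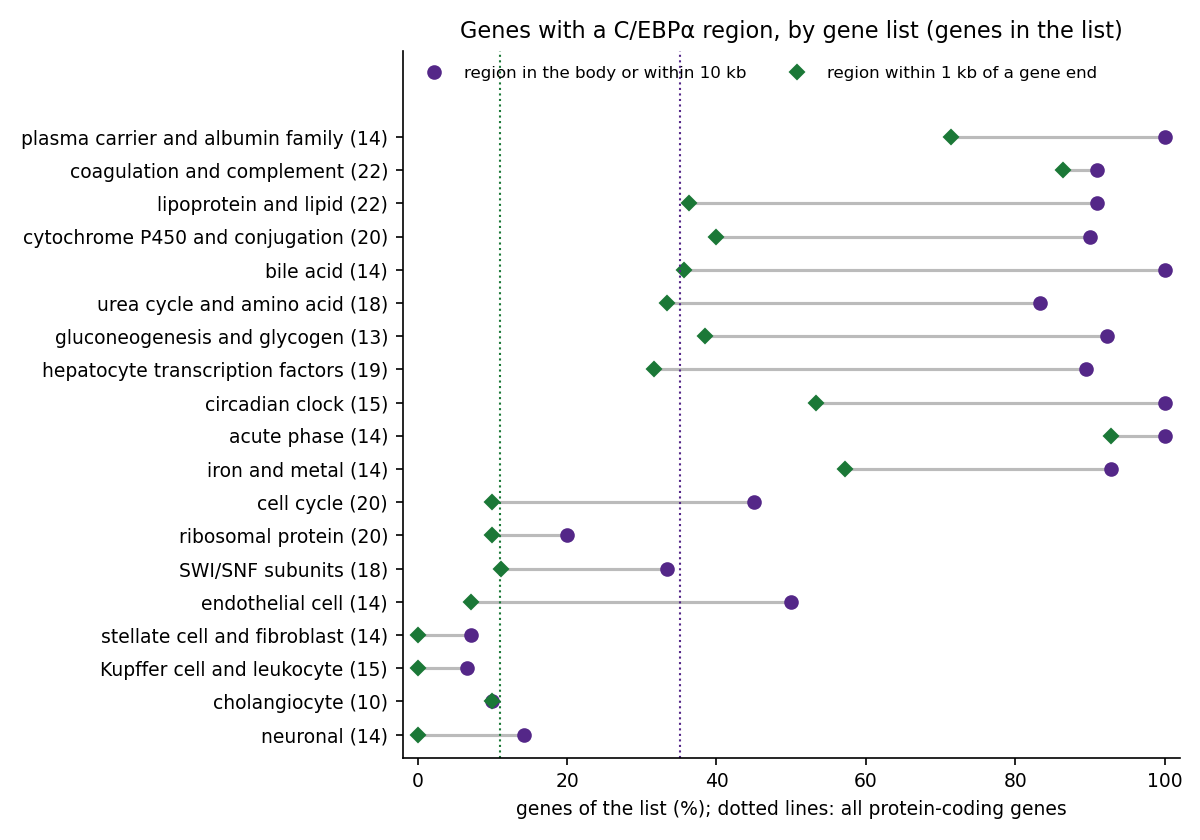
Share of the genes in each group (%) with a C/EBPα region in the body or within 10 kb (circles) and at a gene end (diamonds); dotted lines give 35.1% and 11.1% of all protein-coding genes. Liver groups lie right of the line for each measure, with acute-phase and coagulation genes highest at gene ends.

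The C/EBP motif seen in the promoters printed above was then counted in all 21238 RefSeq promoter windows of 300 bases. TTGCNNAA, searched on both strands, was found in 10.2% of all windows. It was present in 25.9% of the 1320 windows that overlapped a C/EBPα region (exact binomial interval 23.6% to 28.4%), in 15.4% of 590 windows with a peak in 1 list only, and in 5.35% of 8592 windows that had H3K4me2 in all lists but lacked C/EBPα. Windows with neither held it in 13.2%, and these are poorer in G and C, with a median of 48% against 58.3% in bound windows. In windows with a GC content up to 50%, bound windows had 37.1% and marked windows without C/EBPα 12.3%. Between 50% and 60% GC these shares were 31.6% and 7.53%, and over 60% they were 16.5% and 3.37%. Bound windows were higher in all 3 bands. A match is a description of these letters, and most bound windows had none.

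The letters lay close to the middle of the peaks. In the 342 bound windows with a match, its median distance from the region's centre was 39 bp, and in 58.2% it was at most 50 bp. For CCAAT, the box bound by NF-Y, the median was 66.5 bp in 647 windows, and for TGTTTAC, the FOXA motif, it was 114.5 bp in 43. The other motifs differed less between bound and marked unbound windows. Matches of different motifs can overlap in part. CCAAT was in 49.0% and 36.1%, TGTTTAC in 3.26% and 2.43%, CAAAGTCCA, for HNF4A, in 0.758% and 0.396%, and TGACGTCA, the cyclic AMP response element, in 2.42% and 3.47%. Over all promoters these were found in 38.2%, 2.999%, 0.452% and 2.24%. Within bound windows, TTGCNNAA was in 24.9% of those of class 3 (interval 22.5% to 27.5%). Of the 137 of class 0 to 2, 34.3% had it (26.4% to 42.9%). The intervals overlap slightly, which does not decide whether the shares differ. Median GC content was 58.7% in the former and 55.7% in the latter.

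**Figure D5:**
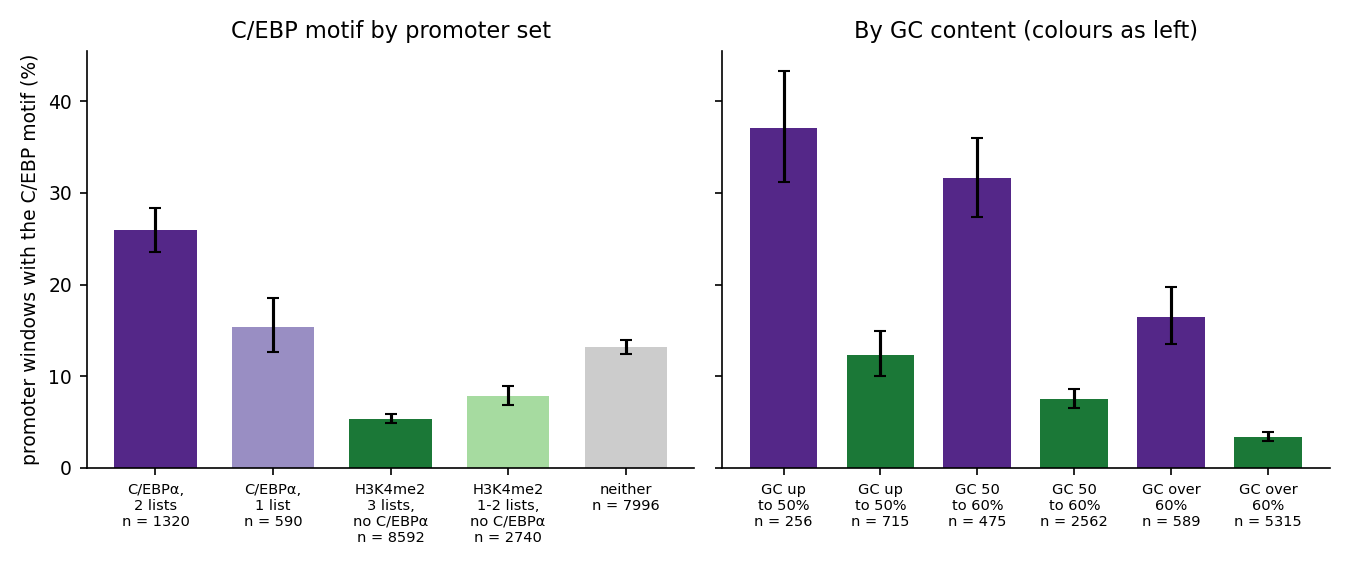
Share of promoter windows (%) with the C/EBP motif, with exact 95% binomial intervals over windows, by C/EBPα and H3K4me2 peaks (left) and for bound and marked unbound windows by GC content (right). Bound windows reach 25.9% overall and are above marked unbound windows in every GC band.

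ARID1A, a readout that the choice of regions did not use, overlapped 3982 of the C/EBPα regions (24.0%), from 1 library without a replicate. The share was 8.14% in class 0 (interval 7.12% to 9.26%), 17.4% in class 1, 27.6% in class 2 and 29.8% in class 3 (28.8% to 30.8%). Regions in 1 C/EBPα list only had 6.66%. The overlap was higher away from gene ends, most of all in class 3, with 13.1% at gene ends and 34.8% elsewhere. In class 0 these shares were 7.22% and 8.18%, in class 1 13.5% and 17.6%, and in class 2 18.1% and 28.4%. Wider regions had more ARID1A overlap in every class. Between the 60th and the 80th width percentile the shares in classes 0 to 3 were 21.6%, 30.8%, 38.5% and 36.8%. Over the 80th they were 23.2%, 37.7%, 45.4% and 43.7%, so class 3 did not exceed class 2 in either bin. Class 3 was also below class 2 up to the 20th percentile (7.63% against 8.83%) and from the 20th to the 40th (12.1% against 13.8%). From the 40th to the 60th it was above, with 22.7% against 21.8%. The gap of 21.7 points between class 3 and class 0 was 7.27 when the stricter H3K4me2 peaks defined the classes.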

How the data were processed

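The deposited lists give peak positions (C/EBPα and V5-Arid1a: position and name only). Per the submitters' processing notes, the build was mm10 and the tools were MACS2 2.0.10.20131216, HOMER, Bowtie2 2.2.3 and Picard; their roles, any pooling and the way peaks were filtered are not given in the sources used here. C/EBPα and V5-Arid1a peak names are numbered with gaps, so that the peaks present are 40.0% of the highest number in each of these 3 lists. Every overlap share depends on that unstated selection. For H3K4me2 the authors' deposited broad peaks also carry a score, a fold over background (ratio), and −log10 p and −log10 q values. Only the −log10 q was used, as a percentile within its list; the lowest was between 1.00 and 1.02. These deposited values depend on library depth, which is unknown.

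Lists were read with Python 3.11.15, numpy 2.4.6, pandas 2.3.3 and scipy 1.17.1. Interval functions were tested on simulated data. Genes are the 21887 protein-coding RefSeq genes of GRCm38.p6 outside the mitochondrion, without strand, so both ends count as gene ends (1 kb); 17492 have a strand through the promoter table. Of 312 distinct symbols in the gene groups 309 matched. Differences between marked and unmarked regions were computed within each of 3 H3K4me2 lists and tested over lists with an exact two-sided sign-flip (paired permutation) test, so no p can fall below 0.25. Shares have exact binomial (Clopper-Pearson) 95% intervals. Regions and genes are not replicates and were not tested. Genes named are group members, the 10 with most regions (11 with a tie), those nearest the 5 largest clusters, nearest the 3 widest regions of each class, those with most class 0 and class 3 regions, and those next to the 3 regions farthest from genes. Members and groups were chosen with earlier results of these data known. Alternatives varied the C/EBPα overlap, peak width, H3K4me2 threshold, distance, windows and each replicate. Some members of the gene groups and 1 of the motifs searched are not reported here.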

Additional observations from a re-analysis of the deposited data

How the results depend on the processing

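Of 92 values recomputed under 15 alternative settings, 64 kept their direction or stayed within 1.5 times (counts) or 1 SD between C/EBPα lists (shares) of the value given. The gene-end, neighbour and width differences between marked and unmarked regions stayed positive in all their alternatives, between 10.9 and 22.1 points, 13.4 and 21.5 points, and 5.77 and 19.2 percentiles. Asking for an overlap of at least 50% of the shorter C/EBPα peak changed no value. The difference in −log10 q percentile turned to -2.59 with H3K4me2 peaks at or above the pooled median −log10 q. This setting applies the same cut, 2.98, to all lists, whose own medians were 4.75, 3.22 and 2.42 in lists 1 to 3. It therefore removes a larger part of list 3 than of list 1. Under that setting the share of regions in no list was 34.0%, in every list 22.0%, and the ARID1A gap between them 7.27 points. Without C/EBPα peaks narrower than the pooled median there were 7512 regions, 7.18% in no list and 61.3% in every list, 1153 genes with a region at an end, 4308 with 1 in the body or within 10 kb, and an ARID1A gap of 19.1 points. An H3K4me2 peak within 500 bp gave 56.2% in every list and a gap of 22.4 points, and the centre base, added after seeing the data like the starts-only window, gave 22.3%, 35.8% and 17.3 points. A gene-end window of 5 kb gave 4755 genes. Leaving out each library in turn gave 17.1% to 28.3% of regions in no list, 44.3% to 60.8% in every list, 17.5 to 21.1 points for the ARID1A gap, 23.3% to 25.8% of bound promoters with TTGCNNAA, 17733 to 23646 regions and 5.12 to 15.8 for the −log10 q percentile. The cause of these shifts was not tested. With 3 lists the test cannot pass 0.05, and with 2 it cannot fall below 0.5. No paired analysis was possible because no groups of samples are compared, so the replicate numbers shared between groups pair nothing here; the sign-flip tests pair marked with unmarked regions inside each list, not samples. Depth is unknown, so absent peaks cannot be read as absent binding.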

Other observations

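Chromosome X stood apart from the autosomes. It held 281 regions, or 29.1 per 100 protein-coding genes, against 45.2 to 108 on chromosomes 1 to 19. Of its regions 30.2% were of class 0 and 24.9% of class 3, against 15.5% and 49.6% on the autosomes together, where no chromosome had more than 19.2% of class 0. H3K4me2 lists 1, 2 and 3 marked 47.3%, 66.5% and 29.5% of the regions on X and 63.4%, 80.04% and 59.3% of those on autosomes, lower in 3 of 3 lists. Fewer genes on X had H3K4me2 at an end in all lists (35.2% against 56.6%), and C/EBPα regions on X were narrower (mean width percentile 49.5 against 54.5). Of the liver genes named above, F9 and Serpina7 had regions on X and Otc had none. The labels used here give no sex, and the cause was not tested.

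The free bases of TTGCNNAA differed between bound promoters and promoters that had H3K4me2 in all lists but no C/EBPα peak, a count made after the values were seen. The palindrome TTGCGCAA was in 31 of 1320 bound windows (2.35%) and in 3 of 8592 marked unbound windows (0.0349%). Of the 379 matches in bound windows 40.4% had C in the second free base (exact interval 35.4% to 45.5%), against 20.1% of 488 matches in the others (16.6% to 23.9%). G in the first free base was found in 26.4% and 8.81% of matches. With the pair GG left out, a choice also made after the values were seen, these were 22.7% and 2.05%. GG itself went the other way, with 3.69% and 6.76%. Matches can fall in overlapping windows, so these intervals cover counting only.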
